A study of Mus musculus with 800 samples.

Results

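The cytosolic ribosomal protein genes were taken by symbol: Rpl or Rps followed by a number, with an optional letter or L suffix, together with the stalk genes Rplp0, Rplp1 and Rplp2 and the small subunit gene Rpsa. Symbols with -ps (pseudogenes) and the Rps6k kinases were left out. This gave 84 of the 28963 rows of the count table, 52 of the large and 32 of the small subunit. Rows with similar names lay just outside the pattern and were not counted as members. In single cells these included Rps3a1 with 28175 counts, Rps27rt with 32857 and Rpl37rt with 25309.

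The data came from vomeronasal sensory neurons, the pheromone-sensing neurons of the nose. GFP-positive, Hoechst-positive, DRAQ7-negative (live) cells were sorted from OMP(GFP/wt) males of the strain B6;129P2-Omptm3Mom/MomJ, 66 days old, in which GFP is produced from 1 allele of Omp, the olfactory marker protein gene. Tissue of 7 mice was pooled as 3 and 4 mice, and cells were loaded on 1 microfluidic chip (C1 HT) with 800 capture chambers, each read as a 3′ end library with 5-base molecular identifiers. All chambers share genotype, sex, age and tissue. Of the chambers, 49.25% were recorded as holding a single cell, 40.625% as empty, 63 as holding multiple cells and 18 as holding a putative single cell. The labels do not tie a chamber to a mouse or a pool, so chambers are cells and not replicates: no test was made, and intervals cover counting error only (95%). They take every count as an independent draw and leave out the variation between cells. For members seen in few cells, 1 chamber can therefore move a fold past its interval.

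Each ribosome is built from ribosomal RNA and a set of proteins, most of them present as a single copy, and most of these genes are broadly active. Many of their mRNAs begin with a C followed by a run of pyrimidines, the terminal oligopyrimidine or TOP tract, through which Larp1 and the kinase mTOR set their translation. In the vomeronasal organ, apical neurons use the G protein subunit Gnai2 with V1R receptors, basal neurons use Gnao1 with V2R receptors, and young neurons carry Gap43, a growth cone protein.

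The starts of several members show the TOP tract that the family is known for. In each of these RefSeq GRCm38.p6 windows, the annotated start is the base after the first 10 letters, and the capitals mark the longest run that opens with C, goes on with at least 5 letters that are C or T, and begins within 5 bases of that start. Rps6 is the target of S6 kinase, Rps27 and Rps18 are among the abundant members here, Rpl28 was lower in putative single-cell chambers, Fau encodes a ribosomal protein fused to a ubiquitin-like protein, and Rps4x and Rpl41 are the most abundant members.
Rps6, chr4:86857348-86857377, minus strand: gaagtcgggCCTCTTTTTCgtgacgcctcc
Rps27, chr3:90213629-90213658, minus strand: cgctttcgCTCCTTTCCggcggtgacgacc
Rps18, chr17:33955646-33955675, minus strand: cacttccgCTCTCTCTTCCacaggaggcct
Rpl28, chr7:4792955-4792984, plus strand: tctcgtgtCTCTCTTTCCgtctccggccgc
Fau, chr19:6057937-6057966, plus strand: gcccccaCTTCTTCCTCTTTCTTgactcca
Rps4x, chrX:102189372-102189401, minus strand: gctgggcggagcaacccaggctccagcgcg
Rpl41, chr10:128549149-128549178, minus strand: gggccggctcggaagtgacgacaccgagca
Such a run, read on the gene's strand only, was found for 26 of the 62 members with a RefSeq start in the table, which is 41.9%, and for 1745 of 14167 other genes, which is 12.3%. Over all 14229 genes with a start the share was 12.4%. Among the lists of related genes it was found for both Fau and Rack1, for 3 of 11 translation factors with a start, for 0 of 23 ribosome biogenesis genes and for 4 of 68 mitochondrial ribosomal protein genes. The annotated start decides what falls into the window, so a window without a run, as for Rps4x and Rpl41, says only that these letters do not hold it.

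The members lie on 19 chromosomes, and 4 are on the X chromosome (Rps4x, Rpl10, Rpl36a and Rpl39). GENCODE vM21 calls 82 of them protein coding, and it lists Rpl6l as a processed pseudogene and Rps4l as a transcribed processed pseudogene. A gene for a small nucleolar RNA, the guides that modify ribosomal RNA, lay inside 29 of the 84 members on the same strand (34.5%), against 1.22% of 16508 other protein-coding genes. Rpl13a holds 4 of them.

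Retrocopies limit how far single rows can be read. Of the 84 members, 79 had at least 1 stretch of 50 bases in the last 300 transcript bases that also occurred in another row of the table. The end of the coding sequence (exonic, GENCODE vM21) is shown for Rps27, a zinc finger protein of the small subunit, its retrocopy Rps27rt and its paralog Rps27l, and for 2 other paralog pairs that the class comparisons turn on, with letters that differ from the first of each set in capitals.
Rps27: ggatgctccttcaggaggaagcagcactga
Rps27rt: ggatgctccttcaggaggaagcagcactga
Rps27l: ggCtgTtcAttTagAagAaagcaAcactAa
Rpl36a: aagagaaagggccaagtgatccagttctaa
Rpl36al: aagagGaagggccaagtgatccagttctaa
Rpl22: gatgaagaggaggaggaagacgaggattag
Rpl22l1: gatgaagaTgGTTCAgaGTCTgaggaCtaA
In these last 30 coding bases Rps27rt had 0 differences from Rps27 and Rps27l had 8, Rpl36al had 1 difference from Rpl36a, and Rpl22l1 had 12 from Rpl22. At the 3′ end, Rps27 shared 40.7% of its 723 distinct 50-base words with Rps27rt and 0 with Rps27l. Rpl36a shared 0 of 646 with Rpl36al, and Rpl22 shared 0 of 996 with Rpl22l1. These rows still shared words with further rows of the table. The part shared was 41.8% for Rpl36a, 56.3% for Rpl36al, 10.4% for Rpl22 and 49.1% for Rpl22l1. For Rps4x it was 31.3%, for Rps27l 8.65% and for Rpl6l, whose sequence is not shown, 100%.

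Rows that share such words moved together from cell to cell. Over the single cells, the Spearman correlation of the counts per total was 0.91 between Rps27 and Rps27rt, 0.92 between Rpl6 and Rpl6l (18.1% of the words of Rpl6 shared) and 0.82 between Rpl10 and its pseudogene row Rpl10-ps1 (44.6% of the words of Rpl10 shared). It was 0.14 between Rps27 and Rps27l, -0.02 between Rpl36a and Rpl36al, -0.01 between Rpl22 and Rpl22l1 and 0.07 between Rps4x and Rps4l, pairs with 0 shared words. The rows Rps19-ps1 and Rps19-ps2 held the same sum of 21121 counts and differed in 14 single cells, by at most 2 counts. The pseudogene rows together held 49.7 counts for every 100 counts of the members in single cells, and 77 of them had a median of at least 10 counts per cell. The table's name speaks of fractional counting of multi-mapping reads, by which copies would share reads, so the abundance of a member with shared words is uncertain. The last 300 bases of 13 members, with Rpl22l1, Rpl7l1 and Rps4l among them, overlap a gene on the opposite strand, and those of 7 overlap one on the same strand. Since the strand used in counting is not given in the sources used here, reads of such partners may not be told apart.

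The total count per chamber ran from 6521 to 260930 in single-cell chambers (median 149648), from 4501 to 319287 in empty ones (median 20731), from 10439 to 306300 with multiple cells (median 181883) and from 17806 to 250080 with putative single cells (median 118238). No 2 of the 800 chambers held identical counts. The sorted type was checked on 7 markers of mature neurons, all detected, with 5 at a median of at least 10 counts in single cells. Their sum was 20.4 counts per 10000. Empty chambers also held neuronal RNA, with a median of 21 counts of Omp against 87 in single cells and a mature neuron sum of 25.9 per 10000. Markers of sustentacular (support) cells summed to 1.69 per 10000 in single cells and 3.12 in empty chambers. Progenitor markers summed to 0.039 in single cells.

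In single cells the 84 genes took 3.51% of all counts (2100714 of 59868405, exact binomial interval 3.50% to 3.51%). Per cell the share ran from 1.41% to 6.03%, with a median of 3.49% and quartiles of 3.24% and 3.81%. The share was also taken by position on the chip, as the titles number it. Whether it depends on position was not tested, and medians of such small sets also vary with the cells they hold. The medians of the 20 title numbers, with 9 to 30 cells each, lay between 3.29% and 3.77%, and those of the 40 title rows, with 6 to 15 cells each, between 2.92% and 3.95%. The large subunit took 1.98% of all counts and the small subunit 1.53%.

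**Figure D1:**
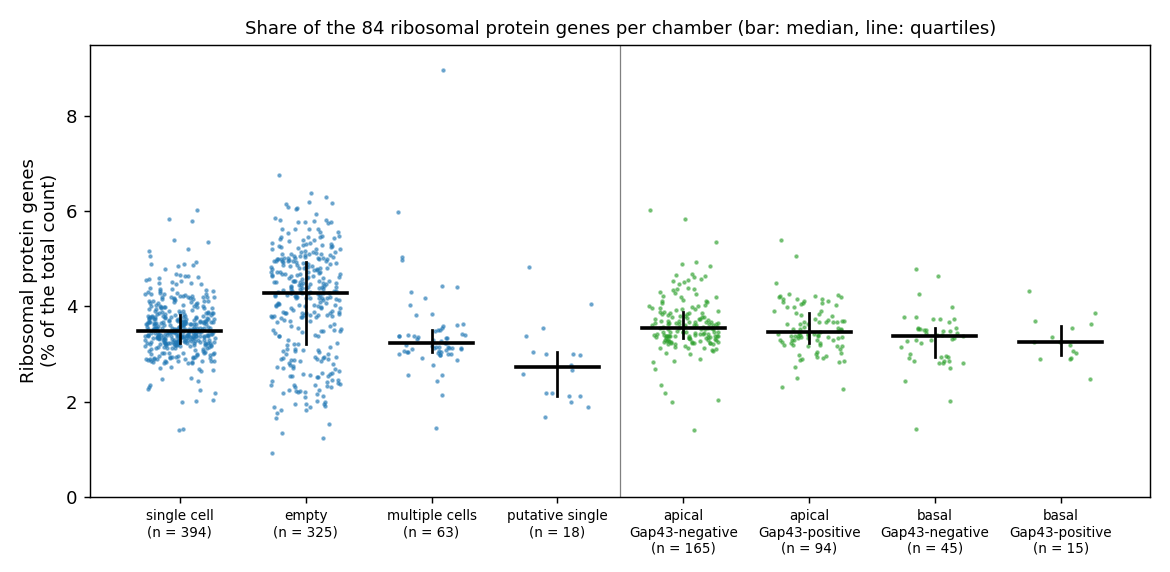
Share of the 84 ribosomal protein genes in the total count (%, vertical axis) of each chamber, by chamber state (blue) and, within single-cell chambers, by class (green), with bars at the median and lines over the quartiles. The medians are 3.49% in single-cell, 4.28% in empty, 3.23% in multiple-cell and 2.72% in putative single-cell chambers, and the groups overlap.

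The single cells carried nearly the whole set. The median cell had at least 10 counts of 76 of the 84 members, and 78 members had a median of at least 10 counts. Of the member values in single cells, 41.95% lay between 40 and 79 counts, while 6.31% were at 0 and 4.45% between 1 and 5. Among all non-zero values of the table, 40.4% lay between 1 and 5 and 22.7% between 40 and 79.

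The most abundant members came from both subunits. Rps4x, an X-linked protein of the small subunit, had a median of 176.5 counts per cell (range 11 to 360). Its counts summed to 70671 over the single cells. Rpl41, the smallest protein of the large subunit, ranged from 13 to 300 counts and summed to 59564. Rps14 summed to 48313. Rps27 had a median of 116.5 counts per cell and Rps27a, made as a fusion with ubiquitin, of 100.5. Rps15 had 93, Rpl37a 94, Rpl37 96 and Rps24 91. The 10 most abundant members held 21.8% of all member counts. Each count is a number of 3′ end tags, so length does not enter, but shared words do.

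The stalk proteins, which draw elongation factors to the ribosome, lay apart in the order. Rplp1 had a median of 86 counts, Rplp2 of 68.5 and Rplp0 of 52. Rpl5 and Rpl11, which bind the smallest ribosomal RNA, had 61 and 58. Rpsa, also known as a laminin receptor precursor, had a median of 61 counts with a wider spread (coefficient of variation 0.65) than Rps4x (0.34) or Rpl41 (0.26).

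Few members were low. Rpl23a had a median of 16 counts and Rpl24 of 20. Rpl13a, a large subunit protein that also takes part in silencing of inflammatory mRNAs, reached 10 counts in 2.03% of single cells, while the row Rpl13a-ps1 had 1145 counts. Only 2 members had under 50 counts: Rpl10l with 3 and Rpl3l with 2, paralogs known from testis and from striated muscle. The other 82 entered the fold comparisons.

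**Figure D2:**
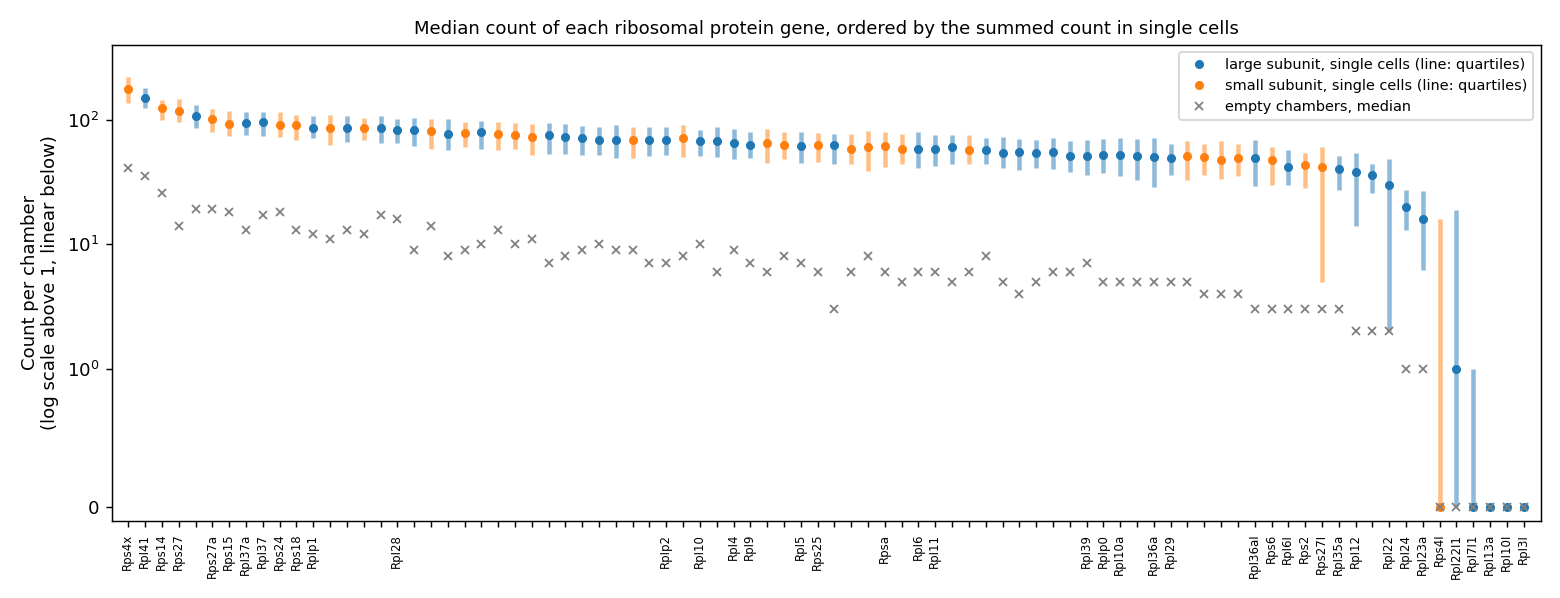
Median count per chamber of each of the 84 genes (vertical axis, log scale above 1) in single cells (dots, lines over the quartiles, blue for the large and orange for the small subunit) and in empty chambers (crosses), ordered by the summed count, with the names of those described in the text. Single-cell medians run from 176.5 for Rps4x to 0 for Rpl3l, and 6 genes have a median under 10.

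Members varied less from cell to cell than the other genes compared. Those genes were not matched to the members in level. Among genes with a median of at least 10 counts, the coefficient of variation of the counts per 10000 had a median of 0.42 over 78 members, with quartiles of 0.38 and 0.49, and of 0.77 over 1961 other genes, with quartiles of 0.56 and 0.95. Over the 3003 pairs of these members the Spearman correlation had a median of 0.13, with 5th and 95th percentiles of 0.02 and 0.26, and over pairs of the other genes a median of 0.02 (-0.09 to 0.13). All points share the library total, and members also share 3′ words, so these are descriptions of the table.

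The share was lower where the total count was higher. Over 4 sets of single cells of equal size, from the lowest to the highest totals, the median share was 3.73%, 3.53%, 3.45% and 3.34%, and the Spearman correlation with the total was -0.32 over these cells. The correlation was 0.31 with the mitochondrially encoded share, 0.73 with the share of the pseudogene rows, 0.02 with Omp and 0.01 with Gap43 counts per 10000. In empty chambers the corresponding sets had 4.70%, 4.73%, 4.33% and 2.81%, with a correlation of -0.56 over these chambers.

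**Figure D3:**
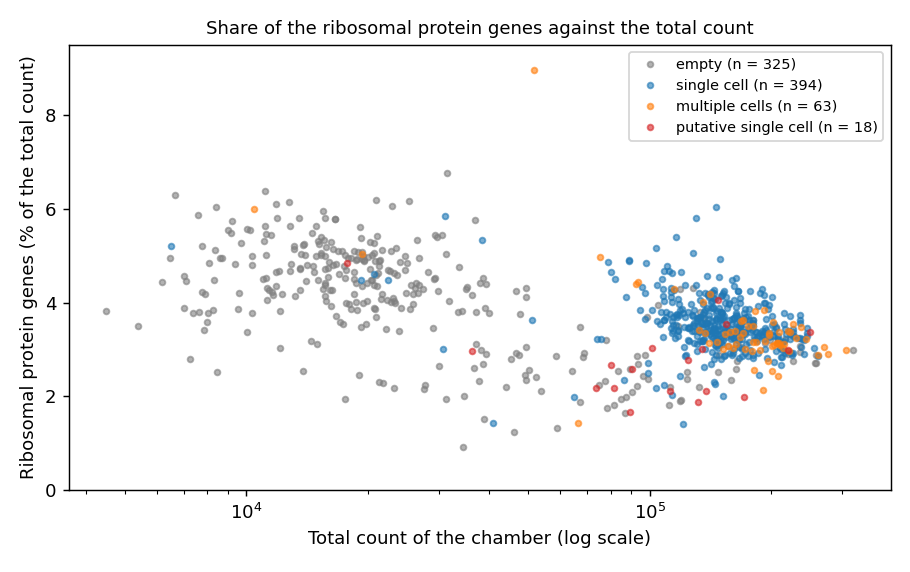
Share of the 84 genes (%, vertical axis) against the total count of the chamber (horizontal axis, log scale), with 1 point per chamber coloured by chamber state. Empty chambers spread from 4501 to 319287 counts and from 0.918% to 6.76%, and single cells have a median total of 149648 and a median share of 3.49%.

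Against empty chambers, the direction of the share depended on how chambers were weighted. Summed over chambers, the members took 3.51% of the counts in single cells and 3.37% in empty chambers, a ratio of 1.04 (1.037 to 1.044). By medians, single cells had 3.49% and empty chambers 4.28%, a ratio of 0.816. The 81 empty chambers of the highest totals, with a median share of 2.81%, carry most of the summed count, and without these chambers, left out after the data were seen, the summed ratio was 0.796. The mitochondrially encoded share had a median of 1.21% in single cells and 3.41% in empty chambers.

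A gene was called higher or lower when its summed count per total differed by at least 1.5-fold and by at least 1.2-fold in the same direction within title numbers 1 to 10 and within 11 to 20. Of 18844 genes with 50 counts or more in single-cell and empty chambers together, 21.5% were called higher and 6.89% lower in single cells. Of the 82 members, 0 were higher and 1 was lower: Rpl13a at 0.471-fold, a value that became 0.981 when 1 chamber was left out. The members' median log2 fold was 0.12, against 0.20 over all genes tested, and 59 members lay below that value. Among the 1961 other genes with a median of at least 10 counts in single cells it was 0.13. Rpl41 and Rps4x, the most abundant members, took a larger part of the empty chambers. Rpl41 was 0.816-fold (0.802 to 0.830) in single cells over empty chambers and Rps4x was 0.835-fold (0.822 to 0.848). Rpl24, at 1.44-fold (1.35 to 1.53), and Rpl35a, at 1.41-fold (1.35 to 1.47), lay at the other end. At equal depth the medians were similar: thinned to 10000 counts, the median single cell showed 74 members with a count (79 before thinning) and the median empty chamber 72.5 (77 before). The lower quartile was 71 in single cells and 60.75 in empty chambers, and the upper quartile was 76 in each. Thinning left out 1 single-cell and 33 empty chambers with fewer counts.

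Chambers with multiple cells had a slightly lower share than single cells. It was 3.26% against 3.51%, a ratio of 0.928 (0.924 to 0.931), with 0.935 and 0.916 in the lower and upper title numbers, and 76 of 82 members lay under a fold of 1. The members' median log2 fold was -0.10, against 0.002 over all genes tested. Among the 1961 other genes with a median of at least 10 counts in single cells it was -0.08, with quartiles of -0.15 and 0.01. Of 18711 genes tested, 9.72% were called higher and 10.9% lower, and of the members 0 and 0. One chamber reached 8.97%, the highest share of all 800. Rpl13a, seen in few cells, was 2.54-fold (2.01 to 3.19), but 3.99 and 0.119 in the sets of title numbers. Among members with 500 counts or more, paralogs stood at both ends: Rpl7l1 was 0.586-fold (0.509 to 0.672) and Rpl22l1 1.37-fold (1.27 to 1.47). Rpl29, at 0.844-fold, was the next lowest. Multiple-cell chambers had a sustentacular marker sum of 3.38 per 10000, against 1.69 in single cells. Their median total was 181883 counts, against 149648 in single cells. The part of support cell RNA and of the total in the result was not tested.

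Putative single-cell chambers had the lowest share. It was 2.76% against 3.51%, a ratio of 0.787 (0.781 to 0.794), with 0.852 over 4 and 0.769 over 14 such chambers in the lower and upper title numbers. Per chamber it ran from 1.68% to 4.84% with a median of 2.72%. The mitochondrially encoded share had a median of 2.27%, against 1.21% in single cells, and these 18 chambers held 8 apical, 9 basal and 1 unassigned cell by the rule given for single cells below. The 8 apical chambers had a median share of 2.42% and the 9 basal ones of 2.77%. The part of class, mitochondrial share and total in the result was not tested.

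In this comparison 19.1% of 18221 genes were called lower and 9.59% higher, and of the 82 members 8 were lower and 0 higher. The members' median log2 fold was -0.37, against -0.24 over all genes tested and -0.09 over the other genes with a median of at least 10 counts. After scaling by the median ratio over genes in place of the total, 3 members were called. The lowest was Rpl7l1, with 11 counts in the 18 chambers, at 0.145-fold (0.072 to 0.260), and 0.0596-fold without 1 chamber. Rpl6, a large subunit protein, was 0.512-fold (0.464 to 0.563): its median was 5 counts in putative single cells and 58 in single cells. Its copy row Rpl6l was 0.441-fold. Since 100% of the 3′ words of Rpl6l occur in other rows, the calls of Rpl6 and Rpl6l cannot be taken as separate. Rpl22l1 was 0.606-fold, Rpl29 0.613-fold, Rpl28 0.630-fold, Rpl24 0.648-fold and Rps25 0.659-fold. Rpl10a, which did not pass within both sets of title numbers, was 0.509-fold, and Rpl4 was highest at 1.03-fold. Thinned to 10000 counts, the median putative single-cell chamber showed 60 members with a count, against 74 in single cells.

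Single cells were called apical with at least 10 counts of Gnai2 and at least 3 times as many as of Gnao1, and basal by the reverse. This made 73.1% of the single cells apical and 65 cells basal, and left 41 unassigned. The median of Gnai2 was 108.5 counts in apical and 7 in basal cells, and that of Gnao1 was 1 and 78.

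Basal cells had a slightly lower share than apical cells. It was 3.28% (3.27% to 3.29%) against 3.56% (3.56% to 3.57%), a ratio of 0.922 (0.919 to 0.926). Per cell it ran from 1.43% to 4.78% in basal and from 1.41% to 6.03% in apical cells, so that the classes overlapped over almost their whole range. The ratio was 0.896 in the lower and 0.958 in the upper title numbers. The large subunit had a ratio of 0.936, the small subunit of 0.904 and the 3 stalk genes together of 0.987. Totals were alike, with medians of 152757 in basal and 149648 in apical cells. The sustentacular marker sum was 0.652 per 10000 in basal and 1.86 in apical cells. Without 22 cells that held at least 10 counts of 2 or more of Cbr2, Cyp2a5, Sox2, Cd74 and Ptprc (support and immune cell genes) the ratio was 0.924.

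Of the 82 members, 70 lay under a fold of 1 in basal over apical cells. Of 17766 genes tested, 10.2% were called higher and 20.2% lower in basal cells, and of the 82 members 1 was higher and 0 lower. The members' median log2 fold of -0.11 lay near that of all genes tested, -0.12, and 43 members were above and 39 below that value. Among the 1961 other genes with a median of at least 10 counts the median log2 fold was -0.02, with quartiles of -0.16 and 0.14. The quartiles of the members were -0.17 and -0.04. The called member was Rpl13a at 2.54-fold (1.90 to 3.38), from 0.0783 counts per 10000 in basal and 0.0308 in apical cells, with 3 and 4 cells at 10 counts or more. Without 1 chamber its fold ran from 1.77 to 3.35.

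Rps4x differed most among abundant members. It had a median of 140 counts in basal cells and of 189.5 in apical cells. Per 10000 it ran from 2.70 to 17.9 in basal and from 3.85 to 29.7 in apical cells. The summed counts gave 9.04 per 10000 in basal and 12.5 in apical cells, 0.721-fold (0.706 to 0.737), with 0.679 and 0.778 in the lower and upper title numbers. The order held within Gap43 states, where the median was 9.09 per 10000 in basal and 13.2 in apical Gap43-negative cells, and 8.46 and 11.3 in Gap43-positive cells. It took 2.75% of the members' counts in basal cells and 3.52% in apical cells. The ranges overlapped.

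The paralogs Rpl36a and Rpl36al, neither past the 1.5-fold rule, had folds on opposite sides of 1. Rpl36a, on the X chromosome, was 0.788-fold in basal cells (0.757 to 0.820), with medians of 43 and 52 counts. Rpl36al, its paralog on chromosome 12, was 1.23-fold (1.19 to 1.28), with medians of 57 and 48, in both sets of title numbers (1.11 and 1.41). The last 300 bases of Rpl36al overlap another annotated gene on the same strand. Rps2 was 0.799-fold and Rpl9 0.808-fold, and at the other end Rps27l was 1.14-fold and Rpl11 1.09-fold. Rps4l was 1.15-fold, but 0.770 and 1.86 in the sets of title numbers. The composition was otherwise steady: of 81 members with 500 counts or more, 77 took 0.8 to 1.2 times the same part of the members' counts in both classes.

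**Figure D4:**
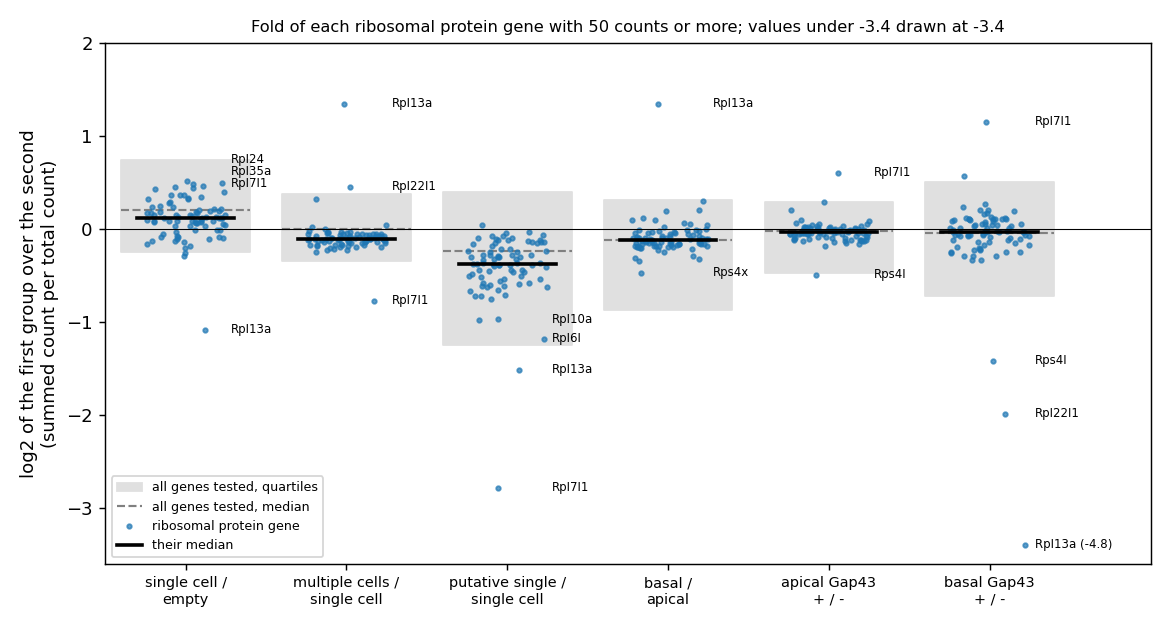
Log2 of the summed count per total in the first group over the second (vertical axis) for each of the 82 genes with 50 counts or more (dots, median as a black bar), with the median (dashed) and quartiles (grey) of all genes tested, for 6 comparisons. In basal over apical cells the median is -0.11 and that of all genes -0.12. Rpl13a (0 counts in putative single cells, set to the floor of 3) and Rpl7l1 stand apart in several comparisons, and Rpl22l1 and Rps4l by Gap43 in basal cells; the lowest point, Rpl13a by Gap43 in basal cells (0.035-fold, 1 count), is drawn at the lower edge.

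Cells with at least 10 counts of Gap43 were called Gap43-positive and those with at most 2 Gap43-negative, separately in each class. There were 94 Gap43-positive apical cells, 57.3% of the apical cells were Gap43-negative, and of the basal cells 15 were positive and 45 negative, and 29 apical and 5 basal cells lay between. Of the empty chambers, 38 (11.7%) also reached 10 counts of Gap43, against 31.5% of single cells. The median totals were 20731 and 149648 counts. Per total, the summed Gap43 count was 0.752-fold in single cells over empty chambers.

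Among apical cells the share was nearly level between Gap43 states. It was 3.50% (3.49% to 3.51%) in Gap43-positive and 3.60% (3.59% to 3.61%) in Gap43-negative cells, a ratio of 0.973 (0.970 to 0.977), with 0.982 and 0.965 in the sets of title numbers. Per cell it ran from 2.26% to 5.40% and from 1.41% to 6.03%. Of 16880 genes tested, 8.41% were called higher and 13.6% lower, and of the 82 members 0 and 0. The members' median log2 fold was -0.03, against -0.02 over all genes tested. Among the members with 500 counts or more, Rpl7l1 was 1.52-fold, but 0.907 and 2.60 in the sets of title numbers, and Rpl12 was 1.16-fold (1.11 to 1.21). Rps4l was 0.712-fold (0.653 to 0.776) and Rpl22l1 0.886-fold. Immune markers summed to 0.068 per 10000 in Gap43-positive and 0.377 in Gap43-negative apical cells, and sustentacular markers to 0.944 and 2.63. Without 21 cells holding such genes the ratio was 0.983.

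Among basal cells the share was 3.25% (3.23% to 3.27%) in Gap43-positive and 3.29% (3.28% to 3.31%) in Gap43-negative cells, a ratio of 0.988 (0.980 to 0.996). It had no settled direction: it was 1.04 and 0.923 in the sets of title numbers, with 11 and 4 Gap43-positive cells, and leaving out 1 cell gave values from 0.972 to 1.01. Of 12355 genes tested, 11.4% were called higher and 17.5% lower, and of the 82 members 1 and 3. All 4 are low or seen in few cells. Rpl22l1 was 0.251-fold (0.181 to 0.341), with 45 counts in 15 and 494 in 45 cells, and 0.0901-fold without 1 cell. Rps4l was 0.374-fold (0.294 to 0.471), and 0.215-fold without 1 cell. Rpl13a had 1 count against 79, 0.035-fold (0.00087 to 0.200), and up to 0.110-fold without 1 cell. Rpl7l1 was 2.23-fold (1.77 to 2.79) and, without 1 cell, between 1.55 and 3.44. Rps6 was the highest of the abundant members at 1.49-fold (1.37 to 1.63), but 1.80 and 0.854 in the sets of title numbers.

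**Figure D5:**
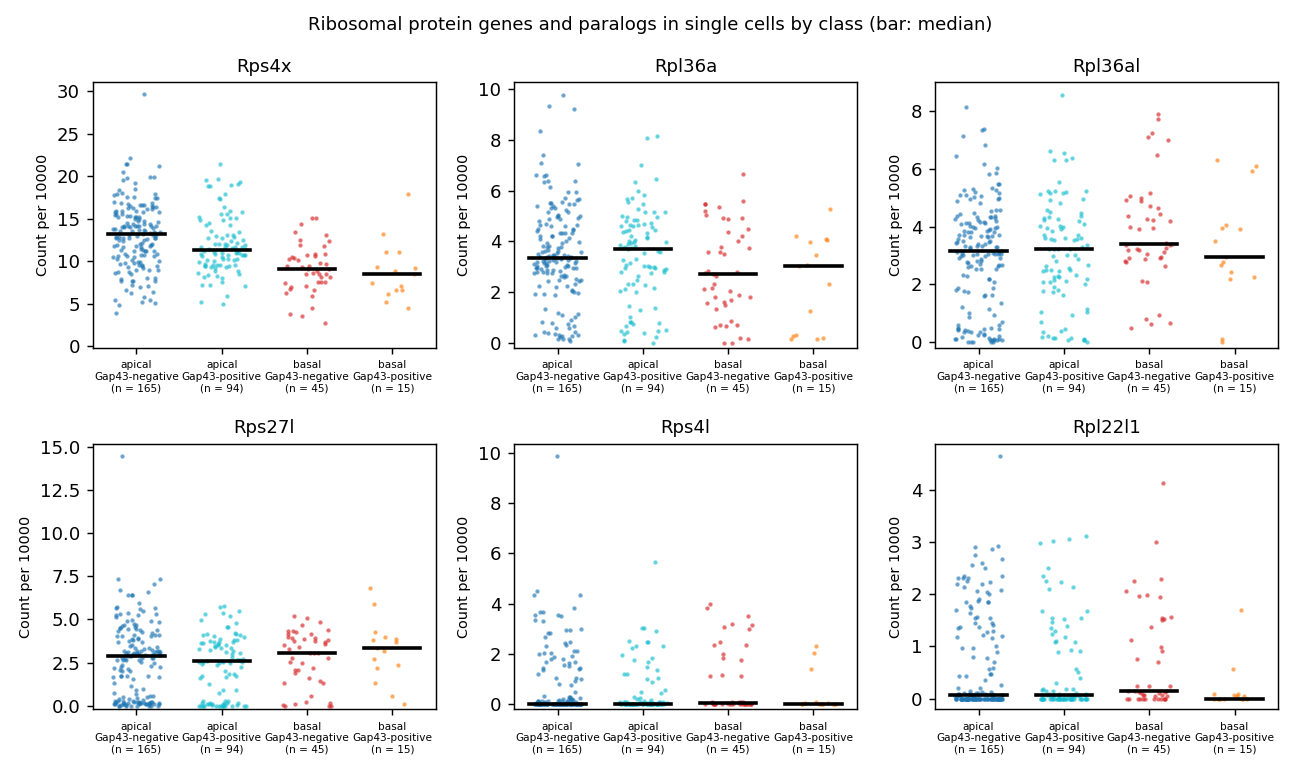
Counts per 10000 (vertical axis) of 6 genes in each apical or basal single cell, by Gap43 state, with bars at the median. Rps4x is lower in both basal groups, with overlapping ranges, and Rps4l and Rpl22l1 are near 0 in most cells and high in some.

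Some L-suffix paralogs were high in some cells and near 0 in others. Non-zero values of all genes in single cells were also split. Of these, 40.4% lay between 1 and 5 counts, 5.16% between 6 and 9 and 22.7% between 40 and 79. The paralogs were not compared with other genes of like level. Of the 8 in the table, which together held 2.91% of the members' counts, Rpl36al, Rps27l and Rpl6l had medians of 49, 42 and 42 counts in single cells. The row Rpl6l shared 100% of its 3′ words with other rows, so its counts may not be told from theirs. Rpl22l1, which binds RNA as Rpl22 does, had a median of 1 count and reached 10 counts in 31.2% of single cells (exact binomial interval 26.7% to 36.05%). Rps4l reached 10 counts in 27.7% and Rpl7l1 in 13.5%. In empty chambers the shares were 5.23%, 4.00% and 2.46%, with a median total of 20731 counts against 149648. Rps27l reached it in 71.8% of single cells and Rpl22 in 60.9%. Rpl3l and Rpl10l reached it in 0 single cells, which allows a share of up to 0.932% (exact upper bound, counting error only).

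With each cell thinned to 80000 counts, Rpl22l1 reached 10 counts in 42 of 160 apical Gap43-negative cells (26.3%), 19 of 94 apical Gap43-positive cells (20.2%), 14 of 44 basal Gap43-negative cells (31.8%) and 1 of 15 basal Gap43-positive cells (6.67%, interval 0.169% to 31.9%). Before thinning these were 52 apical Gap43-negative cells (31.5%), 27 apical Gap43-positive (28.7%), 18 of 45 basal Gap43-negative and 1 of 15 basal Gap43-positive cells. Thinning left out 5 apical and 1 basal Gap43-negative cell of lower total. Rps27l reached it in 68.8%, 68.1%, 81.8% and 86.7% of the thinned cells, in the same order, and 70.3%, 71.3%, 82.2% and 93.3% before. The intervals of the basal Gap43-positive cells are wide in each case.

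Genes with related roles did not all follow the members. Fau had a median of 91 counts in single cells and was 0.924-fold in basal over apical cells, and Rack1, a scaffold on the small subunit, had 56.5 and was 0.861-fold. In putative single cells Fau was 1.02-fold and Rack1 0.605-fold. Over single cells the share of the members had a Spearman correlation of 0.48 with Fau, 0.27 with Rack1 and 0.41 with the elongation factor Eef1a1.

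The 17 translation factors, several of them known as TOP genes, had a median log2 fold of 0.01 in basal over apical cells, -0.05 by Gap43 in apical cells and -0.16 in putative single cells, with 0, 0 and 3 lower and 0 higher. The 3 of 17 stand beside 19.1% of all genes lower in putative single cells. They were Npm1 at 0.526-fold, Eif3e at 0.532-fold and Tpt1 at 0.658-fold. Of the 26 ribosome biogenesis genes, 0 were called in basal over apical cells, 12 were lower and 1 higher in putative single cells, and 4 were lower by Gap43 in apical cells. Over all genes 19.1% were lower and 9.59% higher in putative single cells, and 13.6% were lower by Gap43 in apical cells, a share near that of the 4 of 26. The mitochondrial ribosomal proteins, 80 of 81 tested, had a sum of 95.5 counts per 10000 in basal and 87.2 in apical cells, a ratio of 1.10, with 5 higher and 2 lower. Of the 12 regulators of TOP translation and growth, Myc, at 0.561-fold, and the S6 kinase gene Rps6kb1, at 0.628-fold, were lower in basal cells. Over all genes 10.2% were higher and 20.2% lower there, so that the 2 of 12 regulators lay near the share of all genes.

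Of 12035 rows with a mean of at least 1 count per single cell that are not members, the 8 most like the members' share were Gm13680 (Spearman correlation 0.59), Gm11361 (0.53), Rps27rt (0.53), Rps18-ps3 (0.53), Gm9294 (0.52), Rps24-ps3 (0.51), Gm11878 (0.51) and Gm2830 (0.51). The 8 least like it were Pex7 (-0.26), Fam3c (-0.25), Fmn2 (-0.25), Cpox (-0.25), Rnf217 (-0.24), Dnajc3 (-0.24), Dpagt1 (-0.24) and Dlx3 (-0.24). The median over all of these rows was -0.04 and over the pseudogene rows among them 0.20. All values come from the same single-cell libraries and share their totals.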

How the data were processed

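The 3′ end libraries of the 800 chambers were deposited as 1 table of counts per gene and chamber, with whole numbers from 0 to 662. Per the submitters' processing notes, the tools were STAR 2.5.4b, SAMtools 1.5, featureCounts 1.6.1, bcl2fastq and UMI-tools 0.5.3, with the genome GRCm38/mm10. The name of the deposited table speaks of pseudogenes and of fractional counting of multi-mapping reads, although its values are whole numbers; the exact settings are not given in the sources used here. The table has 1 further column of no sample, which was not used. Groups were taken from the recorded chamber state. Counts were used as deposited, as shares of the total count or per 10000, with Python 3.11.15, pandas 2.3.3 and SciPy 1.17.1. Shares have exact binomial and ratios exact conditional binomial intervals (95%). For a fold, a sum of 0 was replaced by 3 counts. Gene positions came from GENCODE vM21 and start sequences from RefSeq GRCm38.p6.

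No model was fitted, since chambers are cells of pooled mice. The fold rule was tested on simulated basal and apical counts: of 50 genes set to a fold of 2, 50 were called, and of 17571 unchanged genes 445 (2.53%). The simulated counts varied by Poisson counting alone, without variation between cells. These shares therefore do not give the rate of calls to be met in the real counts. Genes were named by rule: the 10 most abundant members and those under 50 counts, in each comparison the 4 lowest and 4 highest folds among members with 500 counts or more, each called member, each L-suffix paralog, and up to 5 called genes each way from each list, of which some are not reported here. The members, lists and rules were chosen with earlier results of these data known. Alternatives covered identifier collisions, title numbers, medians, denominators, membership, marker and Gap43 limits, fold, count minimum and scaling.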

Additional observations from a re-analysis of the deposited data

How the results depend on the processing

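No paired analysis was possible because the title numbers mark chambers and no replicate number is given. Ratios are in the order of the 6 comparisons. In title numbers 1 to 10 they were 1.06, 0.935, 0.852, 0.896, 0.982 and 1.04, so that basal Gap43 turned, and in 11 to 20 they were 1.03, 0.916, 0.769, 0.958, 0.965 and 0.923. Ratios of medians were 0.816 for single over empty, which turned, 0.779 for putative over single, 0.938 for basal over apical and 0.963 for basal Gap43. With identifier collisions corrected, single over empty was 1.06 and putative over single 0.781. Without receptor, mitochondrial and pseudogene rows single over empty was 1.02. With pseudogene rows added, single over empty was 1.12, putative 0.778 and basal Gap43 0.998. Without the top 10 members, values were 1.08 (single over empty), 0.932 (multiple), 0.931 (basal over apical) and 0.980 (apical Gap43). Single over empty turned to 0.980 without 25 empty chambers of high total and, chosen after seeing the data, to 0.796 without the 81 of highest total. Of the choices that follow, the first 3 were also made after seeing the data. With the 19 members of which under 20% of the words are shared, the 6 ratios were 1.06, 0.954, 0.775, 0.94999, 0.988 and 1.01. With counts below 10 set to 0, single over empty was 1.001. With cells at or above the lower quartile of totals, the last 3 ratios were 0.918, 0.968 and 0.972. With putative single cells added they were 0.917, 0.983 and 1.005, the last turned. Gap43-negative cells gave 0.915 for basal over apical, and cells without support or immune markers 0.983 for apical Gap43. Adding the 3 rows outside the symbol pattern (after seeing the data) changed no ratio beyond counting error.

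Counts of members past the fold rule (1, 0, 8, 1, 0 and 4) became 9, 1, 18, 2, 1 and 4 at 1.3-fold. At 2-fold putative fell to 2, and by the median of ratios to 3. With no minimum count, single over empty, multiple and basal over apical had 2 each. With a minimum of 500 counts they were 0 for single over empty, 0 for basal over apical and 2 for basal Gap43. With no check by title numbers, multiple had 2, putative 16 and apical Gap43 1. With counts below 10 set to 0, single over empty had 4 and basal over apical 0. The causes were not tested. Of the alternative folds of single members, 36 moved beyond counting error. None past the fold rule turned. Scaled by the median of ratios, Rpl30, Rpl37 and Rpl5 in putative single cells went from 0.955, 0.973 and 0.979 to 1.07, 1.09 and 1.10, and Rps15a in multiple cells from 1.01 to 0.999. Over both sets of title numbers and the collision correction, 75 to 77 members took 0.8 to 1.2 times the same part in basal and apical cells. Low counts, the cause of which was not tested, limit Rpl3l, Rpl10l and Rpl13a, and the 15 basal Gap43-positive cells limit that comparison.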
